A study of Mus musculus with 2 samples.

Results

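Genomic imprinting silences either the maternal or the paternal copy of a gene, and many of the genes under this control set fetal growth. In mouse, the insulin-like growth factor Igf2, which is read from the paternal copy, drives growth, while several maternally read genes hold it back. The fetal liver is a main site of this system and makes much of the circulating Igf2. Small RNA libraries also catch short pieces of such transcripts, together with the miRNAs that lie inside some of them.

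Fragments of 10 imprinted growth genes are described here: Igf2, H19, Igf2r, Dlk1, Meg3, Sfmbt2, Grb10, Peg3, Cdkn1c and Mest. They were taken by gene symbol from the reads that the authors placed in their RefSeq class, and all 10 listed symbols had reads, out of 16128 symbols in that class. The libraries come from livers of mouse fetuses (strain B6/129) at stage E18.5, shortly before birth. The Ago2ADH library is from mutants in which Argonaute 2, the Argonaute that cuts RNA paired to its guide, is catalytically inactive, and the other library is wild type. There was 1 library per genotype, and how many fetuses went into each is not given in the sources used here, so replicate spread is unknown for every difference below. For the same reason, counting intervals cover counting error only. Reads amplified by PCR carry no molecular identifier, so copies of 1 molecule cannot be told apart and the intervals may be too narrow.

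The Ago2ADH library held 7046197 reads and the wild type library 7599870, and 12.01% and 12.7% of them were of the RefSeq class. Levels are per-million read values (RPM), scaled to all reads of a library, so that 3 reads, the limit that a count of 0 allows, correspond to 0.426 RPM in Ago2ADH and 0.395 RPM in wild type. As a check of the genotype labels, miR-451, whose hairpin is cut by Argonaute 2, had 5421 reads in Ago2ADH and 327786 in wild type. Fragments of the Ago2 mRNA numbered 318 in Ago2ADH and 229 in wild type; the change is in the protein's catalytic site, so this count does not check the label. Fragments of the hepatocyte marker mRNAs summed to 13032 RPM in Ago2ADH and 12523 RPM in wild type, with all 12 markers present in both.

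The reads of most of these genes were scattered pieces, but 3 genes held stacks of repeated reads, and their sequences are shown because several results below refer to them. In H19, reads with many 5′ ends shared a single 3′ end; the capitals mark the 17 nt that these share.
H19 27-nt read: gattgcactgGTTTGGAGTCCCGGAGA
H19 24-nt read: tgcactgGTTTGGAGTCCCGGAGA
H19 18-nt read: gGTTTGGAGTCCCGGAGA

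In Grb10, a pair of 22-nt reads came from the 2 sides of a predicted hairpin; the capitals mark the bases of each that pair with the other.
Grb10 5′ arm: aaccCCCTAAGCCAGCAGGaGc
Grb10 3′ arm: CcTCTGCTGGCTTAGGGtgaga

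Most reads filed under Sfmbt2 came from hairpins of the miR-669 family inside the gene; the capitals mark the seed (bases 2 to 8), through which a miRNA pairs with its targets.
Mir669l main read: aGTTGTGTgtgcatgtatatgt
Mir669o read from hairpin position 19: tAGTTGTGtgtgcatgtttatgt
Mir669o read from hairpin position 20: aGTTGTGTgtgcatgtttatgtgt

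Together the 10 genes had 11414 reads in Ago2ADH and 11023 in wild type, or 1.35% and 1.14% of the RefSeq reads. The summed level was 1620 RPM in Ago2ADH and 1450 RPM in wild type, at a log2 ratio of 0.16 (95% interval 0.12 to 0.20). H19, Grb10 and Igf2 made up 86.4% of these reads in Ago2ADH and 87.8% in wild type, and H19 ranked 13 and Grb10 17 by read number among all symbols.

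A gene was called lower or higher in Ago2ADH when at least 50 reads over both libraries fell on it, the ratio was at most 0.5 or at least 2, and the interval left out 1. All 10 genes had the reads, and 0 of them met this rule in either direction. Of the 5913 RefSeq genes with enough reads, 0.93% were called lower, 0.879% higher and 1.81% either way. When scaled to RefSeq reads, 0610011F06Rik included, 32 genes were lower and 86 higher, against 55 and 52 when scaled to all reads. The 10 genes therefore lay within the 2-fold limits, as did most genes.

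Below those limits, the interval lay above 0 for 6 of the 10 genes (Igf2, H19, Igf2r, Meg3, Sfmbt2 and Grb10), below 0 for 0, and included 0 for 4. The median log2 ratio of the 10 was 0.17, beside -0.000495 over all genes tested. Over all genes tested, 7.88% had an interval above 0 and 7.17% below 0. Intervals narrow with read number: among the 334 genes with 500 or more reads, 23.7% lay above 0 and 24.9% below. There, 6 of 7 of the imprinted genes lay above 0, and Peg3 did not. Sfmbt2, counted among the 6, held mostly miRNA hairpin reads. Its other reads, 32 in Ago2ADH and 19 in wild type, had an interval of -0.00171 to 1.76. The 500-read limit was set after the values were seen.

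**Figure D1:**
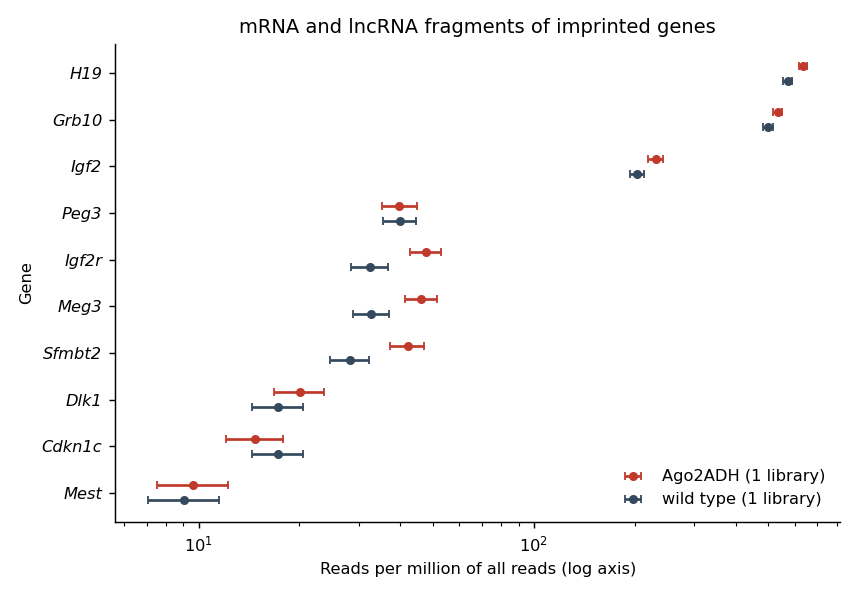
Levels of the 10 imprinted genes in RPM (log axis), with the Ago2ADH library above the wild type library for each gene and 95% counting intervals as bars. H19, Grb10 and Igf2 stand far above the others, from 203 to 636 RPM, and Mest is lowest at 9.65 and 9.08 RPM.

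**Figure D2:**
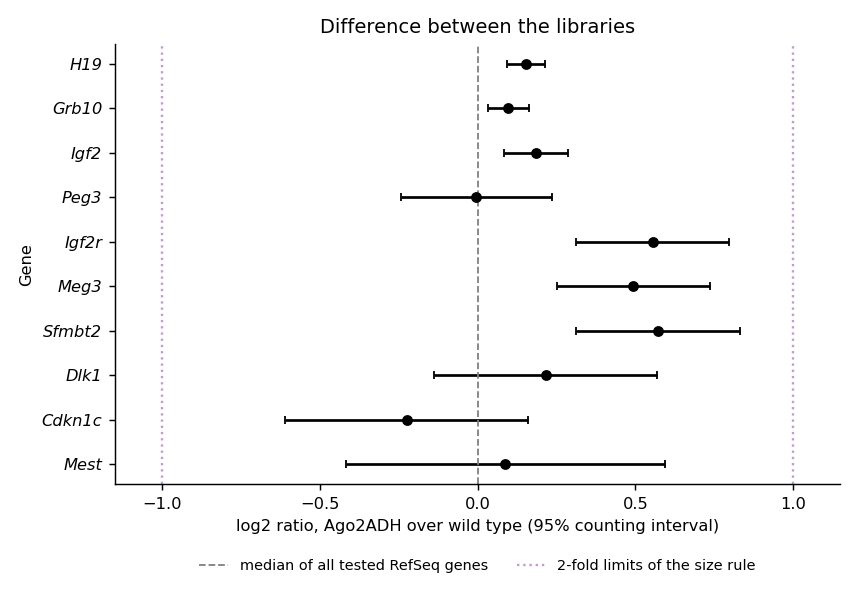
The log2 ratio of Ago2ADH over wild type for each gene (points) with its 95% counting interval (bars), the median of all tested RefSeq genes (dashed) and the 2-fold limits (dotted). All points lie between -0.22 and 0.57, inside the limits, and 6 intervals lie above 0.

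Igf2, the paternally read growth factor (chromosome 7, 142650766 to 142666816, minus strand; GRCm38 here and below), had 1626 reads (231 RPM) in Ago2ADH and 1543 reads (203 RPM) in wild type. The log2 ratio was 0.18 (0.08 to 0.29), a small difference with the Ago2ADH library the higher. The reads were of 2263 distinct sequences, and the most read one, agccatcaacaccagctagagc in the 3′ UTR, had 7 reads in Ago2ADH and 4 in wild type. On the transcript Igf2-205, 69.5% of the Ago2ADH reads and 69.1% of the wild type reads fell in the 3′ UTR, and 24.9% and 25.8% in the coding part. Per kb of length, coding sequence was more densely covered than the 3′ UTR, at 92.9 against 48.7 RPM per kb in Ago2ADH and 84.05 against 42.3 in wild type. The densest point of coverage over both libraries lay in the 3′ UTR at position 3393 of the transcript, at 15.6 RPM in Ago2ADH and 12.4 RPM in wild type. No stack dominated Igf2: 0 of its 3′ end positions had 50 or more reads, and its ratio stayed between 0.18 and 0.27 under 9 ways of counting or scaling.

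Igf2r, the receptor that takes up Igf2 for breakdown and is read from the maternal copy (chromosome 17, 12682406 to 12769664, minus strand), had 335 reads (47.5 RPM) in Ago2ADH and 246 reads (32.4 RPM) in wild type. The log2 ratio was 0.55 (0.31 to 0.80). Of its reads, 54.3% (48.8 to 59.8) in Ago2ADH and 63.01% (56.6 to 69.1) in wild type matched a GENCODE transcript of the gene. The matching reads numbered 182 in Ago2ADH and 155 in wild type, at a log2 ratio of 0.34 (0.02 to 0.66). Those that matched none numbered 153 in Ago2ADH and 91 in wild type, with a log2 ratio of 0.86 (0.48 to 1.25). The difference was larger in the reads outside the spliced transcripts, although the 2 intervals overlap. The strand of these reads was not determined. Airn, a noncoding RNA, is read from the opposite strand of part of this gene. Under its own symbol it had 21 reads in Ago2ADH and 18 in wild type, below the read minimum. Its part in the Igf2r reads was not tested. With reads of 20 to 24 nt, the interval of the Igf2r ratio included 0 (0.36, -0.0160 to 0.74).

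Among other genes linked to the IGF pathway, 1 of 14 with enough reads was called lower and 0 higher, from a list of 18. Over all genes tested these shares were 0.93% and 0.879%. The gene called was Igf1, the growth factor that takes over from Igf2 after birth. It had 31 reads in Ago2ADH and 70 in wild type, at a log2 ratio of -1.07 (-1.73 to -0.44). It was not called when scaled to RefSeq reads or by distinct sequences. The binding protein Igfbp1 had 974 reads in Ago2ADH and 686 in wild type, at a log2 ratio of 0.61 (0.47 to 0.76). Igfbp2 was at 0.51 (0.31 to 0.72) and Igfbp4 at 0.03 (-0.17 to 0.22). The receptors Igf1r and Insr were both at 0.06, with 186 and 193 reads in Ago2ADH and wild type for Igf1r, and 295 and 305 for Insr. The list's median was 0.08. Its intervals lay above 0 for 4 genes and below 0 for 2, Igf1 and Igf2bp2 (-0.75, -1.50 to -0.02). Over all genes tested, 7.88% lay above 0 and 7.17% below.

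H19, a maternally read noncoding RNA beside Igf2 (chromosome 7, 142575529 to 142578143, minus strand), had most reads of the 10 genes. It had 4478 reads (636 RPM) in Ago2ADH and 4345 reads (572 RPM) in wild type, at a log2 ratio of 0.15 (0.09 to 0.21). Nearly all of them, 99.8% in Ago2ADH and 99.9% in wild type, matched an H19 transcript.

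Part of this difference lay in the stack printed above. Reads that ended at position 2024 of H19-202, in exon 5, numbered 469 in Ago2ADH and 280 in wild type, at a log2 ratio of 0.85 (0.64 to 1.07). They made up 10.5% of the H19 reads in Ago2ADH (9.59 to 11.4) and 6.44% in wild type (5.73 to 7.22), intervals that do not overlap. The 27-nt read (chromosome 7, 142575791 to 142575817) had 131 reads in Ago2ADH and 66 in wild type, and the 24-nt read 57 and 29. The 18-nt read had 62 and 46. By length, the log2 ratio was 0.45 (0.05 to 0.85) for reads under 20 nt, 0.79 (0.39 to 1.20) for 20 to 24 nt and 1.19 (0.84 to 1.55) for 25 nt or more. Reads of 25 nt or more were also a larger share of all RefSeq reads in Ago2ADH (33.9%) than in wild type (31.8%), and the part of this in the stack was not tested. Without the stack, the H19 log2 ratio was 0.09 (0.03 to 0.15). Reads that ended at the adjacent position 2023, 83 in Ago2ADH and 47 in wild type (0.93, 0.40 to 1.48), were kept in that value. The stack was singled out after its values were seen. Of the 10 3′ end positions of H19 with 50 or more reads, 4 had an interval above 0 and 0 below, with log2 ratios from -0.85 to 0.93.

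**Figure D3:**
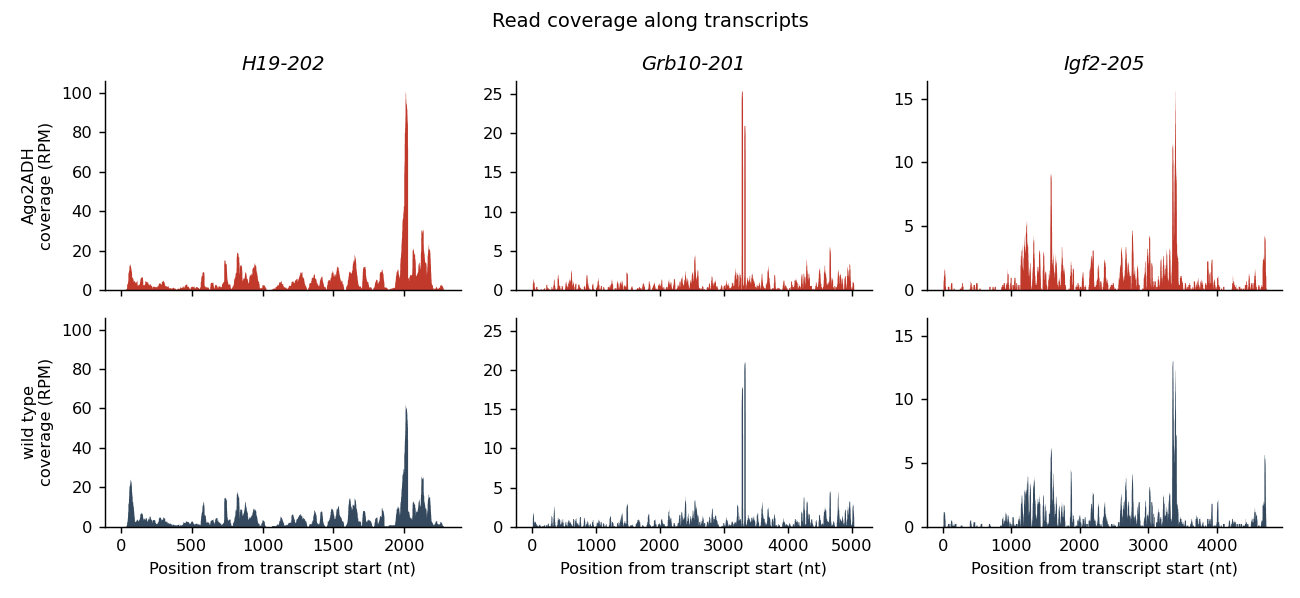
Coverage by reads (RPM) along the transcripts H19-202, Grb10-201 and Igf2-205, by distance from the transcript start, with Ago2ADH in the upper row and wild type in the lower. The H19 peak near its 3′ end reaches 101 RPM in Ago2ADH and 61.8 RPM in wild type, and the first of the paired Grb10 peaks, the 5′ arm, 25.4 and 17.9 RPM.

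H19 also carries the hairpin of miR-675, and Igf2 that of miR-483. The arms of each hairpin differed: miR-675-5p (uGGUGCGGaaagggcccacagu, RefSeq, GRCm38.p6, seed in capitals) had 846 reads in Ago2ADH and 525 in wild type, at a log2 ratio of 0.80 (0.64 to 0.96), while miR-675-3p had 926 and 1044, a log2 ratio of -0.06 (-0.19 to 0.07). For miR-483 the 3p arm (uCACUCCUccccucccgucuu) had 5265 and 3451 reads in Ago2ADH and wild type, a log2 ratio of 0.72 (0.66 to 0.78). The 5p arm (aAGACGGGagaagagaagggag) had 3024 and 3481, a log2 ratio of -0.09 (-0.16 to -0.02). In both hairpins a single arm was the higher in Ago2ADH by about the same ratio, 5p for miR-675 and 3p for miR-483. The hairpins within Meg3 and Mest did not show such a split. The log2 ratios were 0.38 for miR-770-5p and 0.48 for miR-770-3p, and 0.17 for both arms of miR-335. Scaled instead to reads of the miRNA class, 2811227 in Ago2ADH and 2808232 in wild type, the ratios were lower. They were 0.69 for miR-675-5p, -0.17 for miR-675-3p, 0.61 for miR-483-3p and -0.20 for miR-483-5p. For miR-770 they were 0.27 (5p) and 0.37 (3p), and for both arms of miR-335 0.06. Those totals include miR-451, with 5421 reads in Ago2ADH and 327786 in wild type.

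Meg3, a maternally read noncoding RNA of the Dlk1 region (chromosome 12, 109541001 to 109571726, plus strand), had 325 reads (46.1 RPM) in Ago2ADH and 249 reads (32.8 RPM) in wild type. The log2 ratio was 0.49 (0.25 to 0.74), and with reads of 20 to 24 nt its interval included 0 (0.37, -0.0146 to 0.75). Reads that matched a Meg3 transcript numbered 123 in Ago2ADH and 77 in wild type (0.78, interval 0.36 to 1.22), and those that matched none, of undetermined strand, 202 and 172 (0.34, interval 0.04 to 0.64). No Meg3 sequence was repeated often, the most read having 4 reads in Ago2ADH and 0 in wild type. miR-770, encoded within Meg3, had 264 reads in Ago2ADH and 219 in wild type from its 5p arm.

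Dlk1, a paternally read membrane protein of immature hepatoblasts (chromosome 12, 109452823 to 109463336, plus strand), had 141 reads (20.01 RPM) in Ago2ADH and 131 reads (17.2 RPM) in wild type. The log2 ratio was 0.22 (-0.14 to 0.57), within counting error. Nearly all reads matched a Dlk1 transcript, 139 in Ago2ADH and 129 in wild type. Rtl1, a paternally read gene of the same region that lies opposite several miRNAs, had 58 reads in Ago2ADH and 44 in wild type, at a log2 ratio of 0.51 (-0.08 to 1.11).

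Grb10, an adaptor protein that dampens insulin and IGF signalling and is maternally read in liver (chromosome 11, 11930508 to 12038683, minus strand), had 3761 reads (534 RPM) in Ago2ADH and 3791 reads (499 RPM) in wild type. The log2 ratio was 0.10 (0.03 to 0.16). Its interval included 0 with reads of 20 to 24 nt (0.01, -0.09 to 0.11) and with reads on Grb10 transcripts (0.05, -0.05 to 0.15). Reads that matched no Grb10 transcript made up 57.3% in Ago2ADH and 55.97% in wild type, numbering 2156 and 2122, and their strand was not determined. The rest, 1605 reads in Ago2ADH and 1669 in wild type, lay mostly in the 3′ UTR, which held 79.2% and 77.8% of the reads on Grb10-201.

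The hairpin reads lie in that 3′ UTR, in exon 17. The 5′ arm spans positions 3274 to 3295 of the transcript (chromosome 11, 11932274 to 11932295) and the 3′ arm 3315 to 3336 (11932233 to 11932254), 19 nt apart. RNAfold predicts 16 base pairs between the arms, 15 of them unbroken, and a free energy of -39.1 kcal/mol for the 63 nt. Neither arm is part of any of the 1005 hairpins of the RefSeq table or the 2202 of GENCODE M21. Of the reads on the arms, 82.9% in Ago2ADH and 87.03% in wild type were 21 to 23 nt long, against 23.9% and 26.7% of the other Grb10 reads. Such reads of uniform length from both sides of a stem differ in form from the scattered reads of the rest of the gene.

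The arms did not show the same ratio. The 5′ arm had 179 reads in Ago2ADH and 134 in wild type, at a log2 ratio of 0.53 (0.20 to 0.86), and its main read 80 and 54. The 3′ arm had 148 and 159 reads, at a log2 ratio of 0.01 (-0.33 to 0.34), and its main read 84 and 96. The 2 intervals overlap, and the arms were singled out after their values were seen. The other Grb10 reads numbered 3434 in Ago2ADH and 3498 in wild type, at 0.08 (0.01 to 0.15).

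**Figure D4:**
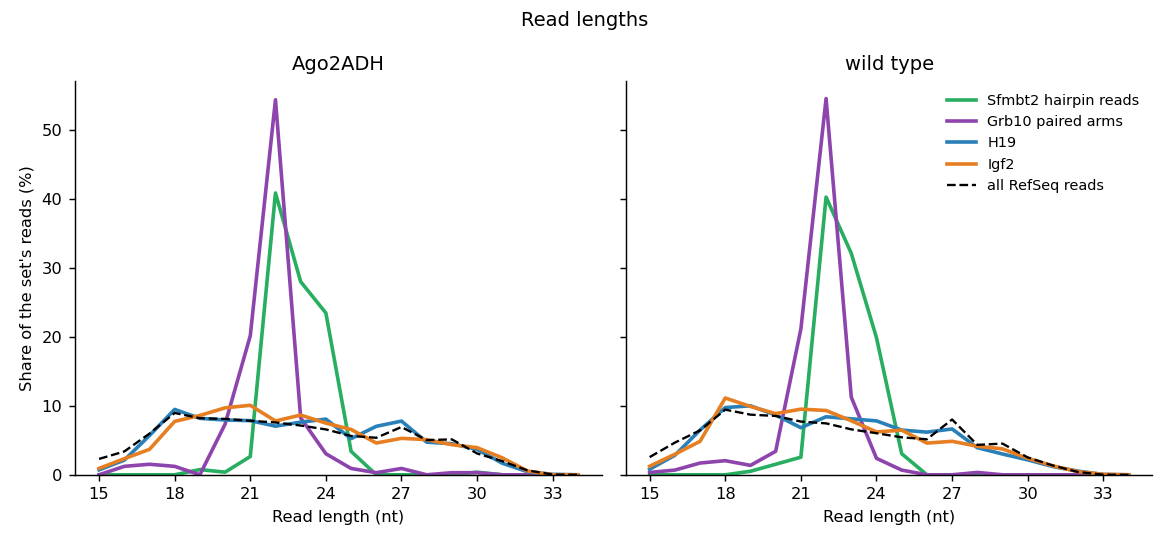
Share of reads (%) by read length (nt) in Ago2ADH (left) and wild type (right) for reads on Sfmbt2 hairpins, on the paired Grb10 arms, of H19, of Igf2 and of all RefSeq genes. The hairpin sets peak at 22 nt, with 82.9% and 87.03% of the Grb10 arm reads at 21 to 23 nt, while H19 and Igf2 spread like all RefSeq reads.

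Cdkn1c, a maternally read inhibitor of the cell cycle (chromosome 7, 143458339 to 143461050, minus strand), had 104 reads (14.8 RPM) in Ago2ADH and 131 reads (17.2 RPM) in wild type. The log2 ratio was -0.22 (-0.61 to 0.16), within counting error, and it stayed below 0 under 9 ways of counting or scaling. By region, the 3′ UTR had 45 reads in Ago2ADH and 73 in wild type (-0.59, interval -1.16 to -0.03), and the coding part 40 and 46. The 5′ UTR went the other way, with 16 and 12 (0.52, interval -0.65 to 1.74).

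The paternally read genes Peg3 and Mest had ratios within counting error. Peg3, which encodes a zinc finger protein (chromosome 7, 6703892 to 6730431, minus strand), had 280 reads (39.7 RPM) in Ago2ADH and 303 reads (39.9 RPM) in wild type, at a log2 ratio of -0.00476 (-0.24 to 0.23) that is above 0 when scaled to RefSeq reads (0.08). Mest, which encodes a hydrolase-like protein (chromosome 6, 30723547 to 30748465, plus strand), had 68 reads (9.65 RPM) in Ago2ADH and 69 (9.08 RPM) in wild type, at a log2 ratio of 0.09 (-0.42 to 0.59). miR-335, which lies within Mest, had 4531 reads of its 5p arm in Ago2ADH and 4341 in wild type, many more than the host transcript.

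Sfmbt2, a polycomb-related gene with a large rodent miRNA cluster in an intron (chromosome 2, 10370510 to 10595253, plus strand), had 296 reads (42.01 RPM) in Ago2ADH and 215 reads (28.3 RPM) in wild type, at a log2 ratio of 0.57 (0.31 to 0.83). These are mostly not mRNA fragments: 264 reads in Ago2ADH (89.2%) and 196 in wild type (91.2%) matched a miRNA hairpin of GENCODE, and 6 and 1 matched an Sfmbt2 transcript. For the other 9 genes, 0 reads of the RefSeq class matched a miRNA hairpin. The reads of miR-675, miR-483, miR-335 and miR-770 were filed in the miRNA class, so this 0 reflects the classes. The Sfmbt2 value is therefore a value of miRNA reads, and the mRNA had too few reads to be compared. It is scaled to all reads and was not set against the change of miRNA reads in general.

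Mir669l (chromosome 2, 10468971 to 10469068) had 124 reads in Ago2ADH and 116 in wild type, at a log2 ratio of 0.21 (-0.17 to 0.58). Mir669o (chromosome 2, 10514300 to 10514395) had 111 and 64, a log2 ratio of 0.90 (0.45 to 1.37). All of these reads came from the 5′ arm. All but 1 of the Mir669o reads began at hairpin position 19 or 20, and the later start shifts the seed by 1 base. From position 19 there were 52 reads in Ago2ADH and 47 in wild type, at a log2 ratio of 0.25 (-0.34 to 0.86). From position 20 there were 59 in Ago2ADH and 16 in wild type, at a log2 ratio of 1.99 (1.18 to 2.89). The second form made up 53.2% of Mir669o reads in Ago2ADH (43.4 to 62.7) and 25% in wild type (15.02 to 37.4), and its seed, as printed above, is that of the Mir669l main read. This split was chosen after its values were seen, and near-identical hairpins of the cluster share much of this sequence. The main read of Mir669l and that of Mir669o, from position 19, each match the genome once. Only reads filed under Sfmbt2 in the RefSeq class were counted. Reads of these hairpins in the miRNA class, if any, do not enter the shares.

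**Figure D5:**
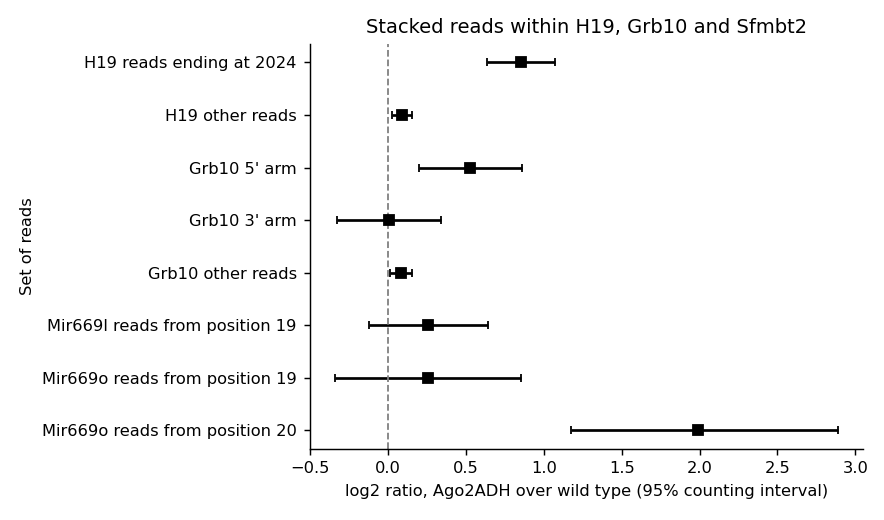
The log2 ratio of Ago2ADH over wild type (squares) with 95% counting intervals (bars) for sets of reads within H19, Grb10 and the Sfmbt2 hairpins. Reads of Mir669o from position 20 stand at 1.99 and H19 reads ending at position 2024 at 0.85, while the other H19 and Grb10 reads lie at 0.09 and 0.08.

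Read length differed between the libraries for the scattered fragments. Reads of 25 nt or more made up 35.2% of H19 reads in Ago2ADH and 30.2% in wild type, and 32.9% and 28.1% of Igf2 reads. Of the Grb10 reads off the arms they made up 39.5% in Ago2ADH (37.8 to 41.1) and 31.4% in wild type (29.9 to 33.0), while on the arms they were 2.75% and 1.02%. For Dlk1 the shares were 37.6% in Ago2ADH and 23.7% in wild type, and for Mest, with the fewest reads, 30.9% and 40.6%. The other genes, Sfmbt2 included, also had the larger share in Ago2ADH, as did all RefSeq reads; the part of read length in the ratios was not tested.

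Levels can be set against each other only per length of transcript, here with only the reads on 1 transcript per gene. For Grb10 these were 1520 reads in Ago2ADH and 1586 in wild type, and for Meg3 100 and 61. Most reads of Grb10 and Meg3 thus do not enter, and their places depend on that choice. Sfmbt2, with 5 and 1 such reads, was left out. Per length, H19 was highest, at 277 RPM per kb in Ago2ADH and 249 in wild type. Igf2 (45.3 and 39.5) and Grb10 (42.6 and 41.2) followed, and their order differed between the libraries. Then came Dlk1 (11.6 and 9.97), Cdkn1c (7.59 and 9.13) and Peg3 (3.44 and 3.71). Igf2r (2.91 and 2.29) and Mest (2.88 and 2.81) again changed order, and Meg3 (0.976 and 0.552) was low on a transcript of 14548 nt. No intervals were computed for these levels, and that of Mest rests on 54 reads in Ago2ADH and 57 in wild type. The changes of order are therefore not read as differences between the libraries. Antisense matches were few, 3 reads in Ago2ADH for H19 and 1 or 0 for each other gene and library.

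Of 49 other genes listed as imprinted in mouse, 39 had reads and 18 had enough of them, and 0 were called in either direction. The shares over all genes tested were 0.93% lower and 0.879% higher, so a count of 0 is no trait of this list. Whether each listed gene, Xist among them, is imprinted in fetal liver was not tested. Their median log2 ratio was -0.03. The interval lay above 0 for Copg2, a coat protein gene next to Mest (81 reads in Ago2ADH and 48 in wild type, log2 ratio 0.86, interval 0.33 to 1.41), and for Blcap (55 and 34 reads, 0.80, interval 0.16 to 1.46). It lay below 0 for Sgce (98 and 141 reads, -0.42, interval -0.80 to -0.03). These are 2 genes above and 1 below of 18, beside 7.88% and 7.17% of all genes tested. Kcnq1ot1, a noncoding RNA of the Cdkn1c region, had 217 reads in Ago2ADH and 220 in wild type (0.09), and Gnas 150 and 181 (-0.16).

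Cell type markers differed between the libraries as well. Of 13 erythroid markers with enough reads, 7 had an interval below 0 and 1 above, and all 14 summed to 1262 RPM in Ago2ADH and 1924 RPM in wild type. Over all genes tested these shares were 7.17% below and 7.88% above. Of 12 hepatocyte markers, each with over 500 reads, 6 lay below 0 and 3 above, beside 24.9% and 23.7% of all genes with that many reads. The 11 endothelial and stromal markers summed to 49.4 RPM in Ago2ADH and 51.7 RPM in wild type, with Stab2, of sinusoidal endothelium, at 18.2 and 15.5 RPM. Of the 8 with enough reads, 2 had an interval below 0 and 0 above, and their median log2 ratio was -0.33. The collagen genes Col1a2, at -1.04 (-1.90 to -0.22) and called lower, and Col3a1, at -0.93 (-1.83 to -0.08), were those below. The erythroid gene called lower was Spna1, at -1.21 (-1.72 to -0.73). The 8 white blood cell markers summed to 118 and 129 RPM, and the 6 muscle markers to 4.12 and 3.68 RPM, with 1 muscle marker at 0 in Ago2ADH. Their part in the values of the imprinted genes was not tested, and in bulk liver fewer cells of a type and less RNA per cell cannot be told apart.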

How the data were processed

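The deposited table gives, for every distinct sequence, a raw count of its reads in each of the libraries, unscaled by the authors. Each of the 2344366 sequences (15 to 34 nt) also has its number of genome matches, a class and a name, per the file headers. Per the labels' protocols, RNA of 19 to 30 nt was selected on a gel, ligated to adapters, amplified by RT-PCR and sequenced; aligner, genome build and trimming: not given in the sources used here. Reads of the RefSeq class were summed by symbol (Python 3.11.15, scipy 1.17.1) and scaled to all reads. Ratios have exact conditional binomial 95% intervals, and shares exact Clopper-Pearson 95% intervals. With 1 library per genotype no p-value was computed, and a size rule took its place. The rule was tried only on counts simulated with counting error alone. That trial cannot tell how often spread between libraries would lead to a call. Reads were placed by exact match on GENCODE M21 transcripts and miRNA hairpins (GRCm38), and coordinates come from that match. Region shares and levels per kb use, for each gene, the transcript that matched more of its reads than any other. Arms take reads that overlap the main read by 15 nt or more. Folding used RNAfold 2.7.2. The genes, lists and tests were chosen with earlier results of these data known. Named are all 10 genes, listed genes with 50 or more reads, Airn with fewer, and the stacked reads, chosen after their values were seen. Listed genes were found by symbol or, where absent, by a RefSeq synonym.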

Additional observations from a re-analysis of the deposited data

How the results depend on the processing

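The count of 0 called genes among the 10 held under 11 other settings and with only reads on GENCODE transcripts. The summed log2 ratio of 0.16 was 0.24 when scaled to RefSeq reads and 0.12 with reads of 20 to 24 nt; under the other 8 alternatives it stayed inside its interval. The 107 genes called over the whole class became 70 with reads of 20 to 24 nt, 54 by distinct sequences, 362 with a minimum of 20 reads, 30 with a minimum of 100, 544 with no minimum and 501 at a fold limit of 1.5. For other imprinted genes the count of 0 became 1 with a minimum of 20 reads, 2 with no minimum and 2 at a fold limit of 1.5. For the IGF list the count of 1 became 0 when scaled to RefSeq reads, 0 with reads of 20 to 24 nt, 0 by distinct sequences and 3 at a fold limit of 1.5. These limits change how many genes enter or pass. The cause of the other changes was not tested, nor was the part of 0610011F06Rik in those by RefSeq scaling. Of 82 values of single genes under alternatives, 8 left the interval of the reported value. Peg3 alone of the 10 genes changed sign. Alternatives by GENCODE transcript, by H19 stack and by hairpin were added after the data were seen. The small counts of Mest, Cdkn1c and Dlk1 limit what can be told. No paired analysis was possible because there is 1 library per genotype.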
